A study of Mus musculus with 2 samples.

Results

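The genes described here are the clustered Zfp genes, the protein-coding genes whose symbol is Zfp followed by a number and whose 5′-most transcript start lies within 100 kb of that of another such gene on the same chromosome. Of 394 Zfp genes in GENCODE M21 on mouse GRCm38 (mm10), 216 met this rule and fell into 54 chains of neighbours, called clusters below. The other 178 are called isolated. Near the limit of the rule, Zfp972 and Zfp971 were joined at 97671 bp, and Zfp771 and Zfp768 were kept apart at 101315 bp. The annotation held 21938 protein-coding genes in all. The data are H3K4me3 ChIP-seq from MEL cells, an immortalized mouse erythroleukaemia line, with 2 libraries of a single group, labelled with a size range of 150 to 350, and no second condition. The labels number the libraries as biological replicates 1 and 2 and name the same biosample for both, so the spread between them may be technical. Peaks were listed for each replicate and for a replicated set, and a gene counts as marked if a peak of the replicated set overlaps the 1000 bp on either side of any of its starts. The lists carry no read numbers. The depth of each call is therefore unknown, and a start without a listed peak is not shown to lack the mark.

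Trimethylation of histone H3 at lysine 4 lies over the starts of active and poised genes and is densest at promoters rich in CpG dinucleotides. Zfp genes encode DNA-binding proteins with arrays of C2H2 zinc fingers, and many carry a KRAB domain near the N terminus, which recruits the corepressor TRIM28 and, with it, enzymes that lay down H3K9 trimethylation. The genes multiplied by tandem duplication, so neighbours are often close relatives, and many of the proteins bind and silence transposable elements. As a check of the labelled cell type, all 8 listed erythroid markers, Gata1 and Klf1 among them, were marked, as was 1 of 24 markers of other cell types (Dazl, of germ cells, with a peak of only 341 bp).

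Of the 216 clustered genes, 151 (69.9%) were marked and 65 were not, beside 50.3% of all protein-coding genes. The replicate 1 list marked 151 of them (69.9%) and the replicate 2 list 154 (71.3%), a mean of 70.6% ± 0.982 (SD, n = 2). All 151 genes marked in the replicated list were marked in both replicate lists. This is usual for the replicated list: of all 11037 marked genes, 99.2% were marked in replicate 1 and 99.9% in replicate 2. Isolated Zfp genes were marked in 121 of 178 cases (68.0%), with 68.5% in replicate 1 and 68.0% in replicate 2 (68.3% ± 0.397, SD, n = 2). The clustered share was thus higher by 1.93 percentage points in the replicated list, by 1.37 in replicate 1 and by 3.32 in replicate 2, with an SD of 1.38 over the replicates, so the clustered and isolated genes differed by little more than the replicate lists did. The sign of this difference rested on the rule for clusters and on the starts used to call a gene marked. It was 19.3 points with neighbours within 50 kb and -3.39 points within 200 kb. With the same clusters it was -0.65 points when only the 5′-most start was used. With 2 libraries of a single group there is no test of these shares.

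The share marked differed between bands of distance to the nearest Zfp gene. All 20 genes with a Zfp start under 10 kb away were marked. Among them were 4 pairs that shared a peak, so their calls are not independent. At 10 to 25 kb 47 of 65 (72.3%) were marked, and at 25 to 50 kb 69 of 85 (81.2%). At 50 to 100 kb only 15 of 46 (32.6%) were. This last band was also made of other sequence: 26 of its 46 promoters had few CpGs and 31 had at least 10% of their 32-base words elsewhere in the genome, beside 17 and 22 of 85 in the band before it. The part of these features in the lower share was not tested. Of the isolated genes, 40 of 65 (61.5%) were marked at 100 kb to 1 Mb, where 35.4% of promoters had at least 10% repeated words, and 81 of 113 (71.7%) beyond 1 Mb, where 7.08% had.

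In 19 clusters every member was marked (74 genes), in 27 some were (77 of 124 genes), and in 8 none was (18 genes). The share marked was 53.8% in the 26 clusters of 2 genes (28 of 52), 65.4% in the 20 clusters of 3 to 5 genes (51 of 78) and 83.7% in the 8 clusters of 6 or more (72 of 86). Members of the fully marked clusters were mostly CpG-rich, with 54 of 74 promoters in the high class defined below and 3 in the low class. In the unmarked clusters 15 of 18 promoters were in the low class. No replicated peak lay anywhere in the span between the first and last start of these clusters. Of the same 18 promoters, 16 had at least 10% repeated words, beside 9 of 74 in the fully marked clusters. At such starts an absent mark and unassigned reads cannot be told apart. The part of CpG class and of repeated words in this contrast was not tested. Chromosome 7 held 74 members in 15 clusters, of which 57 (77.0%) were marked, and chromosome 6 held 11, all marked. On chromosome 4, 1 of 12 members was marked and on chromosome 2, 4 of 11 (36.4%). The isolated Zfp genes of the same chromosomes were marked in 77.8% of cases on chromosome 7, close to the clustered share, in 66.7% on chromosome 6, in 38.9% on chromosome 4 and in 58.8% on chromosome 2.

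**Figure D1:**
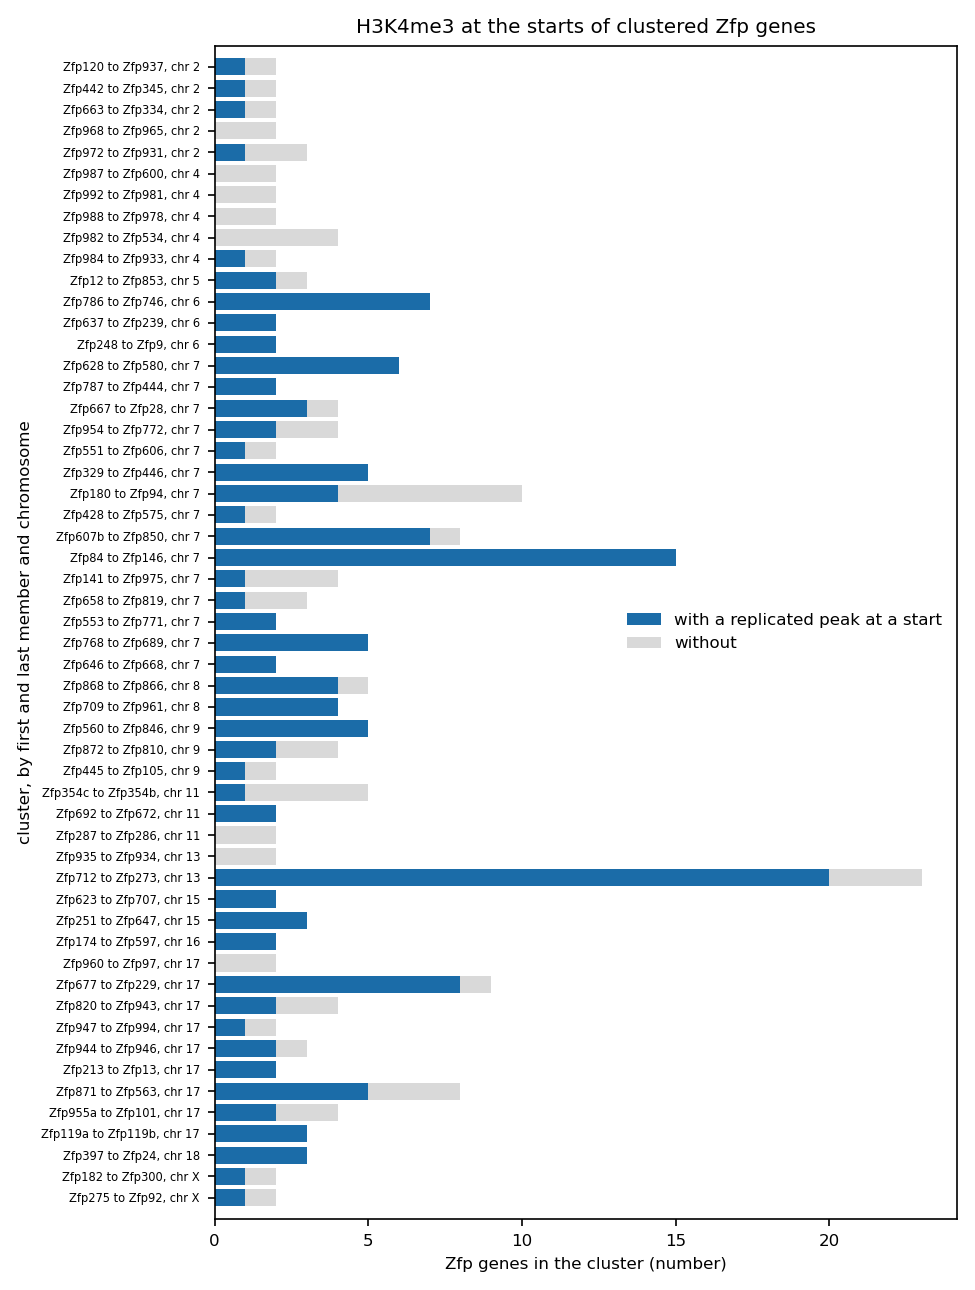
Number of Zfp genes with (blue) and without (grey) a replicated H3K4me3 peak at a start in each of the 54 clusters, in chromosome order. Every member of the Zfp84 to Zfp146 cluster on chromosome 7 is marked (15 of 15), and 11 of the 12 members on chromosome 4 are not.

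The largest cluster ran over 753 kb of chromosome 13, from Zfp712 to Zfp273, and holds 23 Zfp genes, all with a match to the KRAB domain. It also spans Rsl1, which encodes a KRAB zinc finger repressor of male-specific liver genes and was not marked. Of the 23 members, 20 were marked in each of the 3 lists, and Zfp429, Zfp459 and Zfp493 were not. Signal values, the authors' score for each peak, of unstated definition, ran from 5.20 at Zfp729b to 18.7 at Zfp759 with a median of 11.8. Each list has its own scale, so values are compared only within a list. Zfp759 had 16.9 in replicate 1 and 18.9 in replicate 2, whereas Zfp729b, whose protein has 30 zinc finger matches, the most of any clustered member, had 5.94 and 4.72. The median of the marked members was below that of all marked genes, 13.8. Zfp759 ranked 1913 of 11037 marked genes, above the upper quartile of 17.2, and no member reached the top decile.

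The Zfp84 to Zfp146 cluster on chromosome 7 spans 401 kb, and all of its 15 members were marked in all lists. The highest value there was 17.3 at Zfp30 (12.8 in replicate 1, 20.4 in replicate 2) and the lowest 6.62 at Zfp420 (6.30 and 6.70). Zfp568, a repressor of a placental Igf2 transcript, had 14.1, with 6.98 in replicate 1 and 18.6 in replicate 2. The Zfp180 to Zfp94 cluster lies elsewhere on the same chromosome, spans 235 kb, and was marked at 4 of its 10 genes: Zfp235 had 16.6 (14.0 and 19.6), Zfp61 11.6, Zfp94 10 and Zfp180 9.70. The 6 members without a listed peak (Zfp112, Zfp114, Zfp111, Zfp109, Zfp108 and Zfp93) all carry the KRAB match, and 5 of them follow each other along the chromosome. Repeated words made up at most 11.4% of the promoter of any of these 6.

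The 7 genes from Zfp786 to Zfp746 on chromosome 6 were all marked. Zfp282 had the highest value of all clustered members, 25.5, which ranks 220 of 11037 marked genes (18 in replicate 1, 20.0 in replicate 2). Zfp746, which encodes the parkin substrate PARIS, had 19.2. All 6 members from Zfp628 to Zfp580 on chromosome 7 were marked as well, and from Zfp677 to Zfp229 on chromosome 17 all but Zfp677 of 9 were. The opposite case was the Zfp354c to Zfp354b cluster on chromosome 11, where Zfp354c alone of 5 was marked. Its value was 12.7 (10.6 and 13.9), and neither replicate listed a peak at Zfp879, Zfp454, Zfp2 or Zfp354b.

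**Figure D2:**
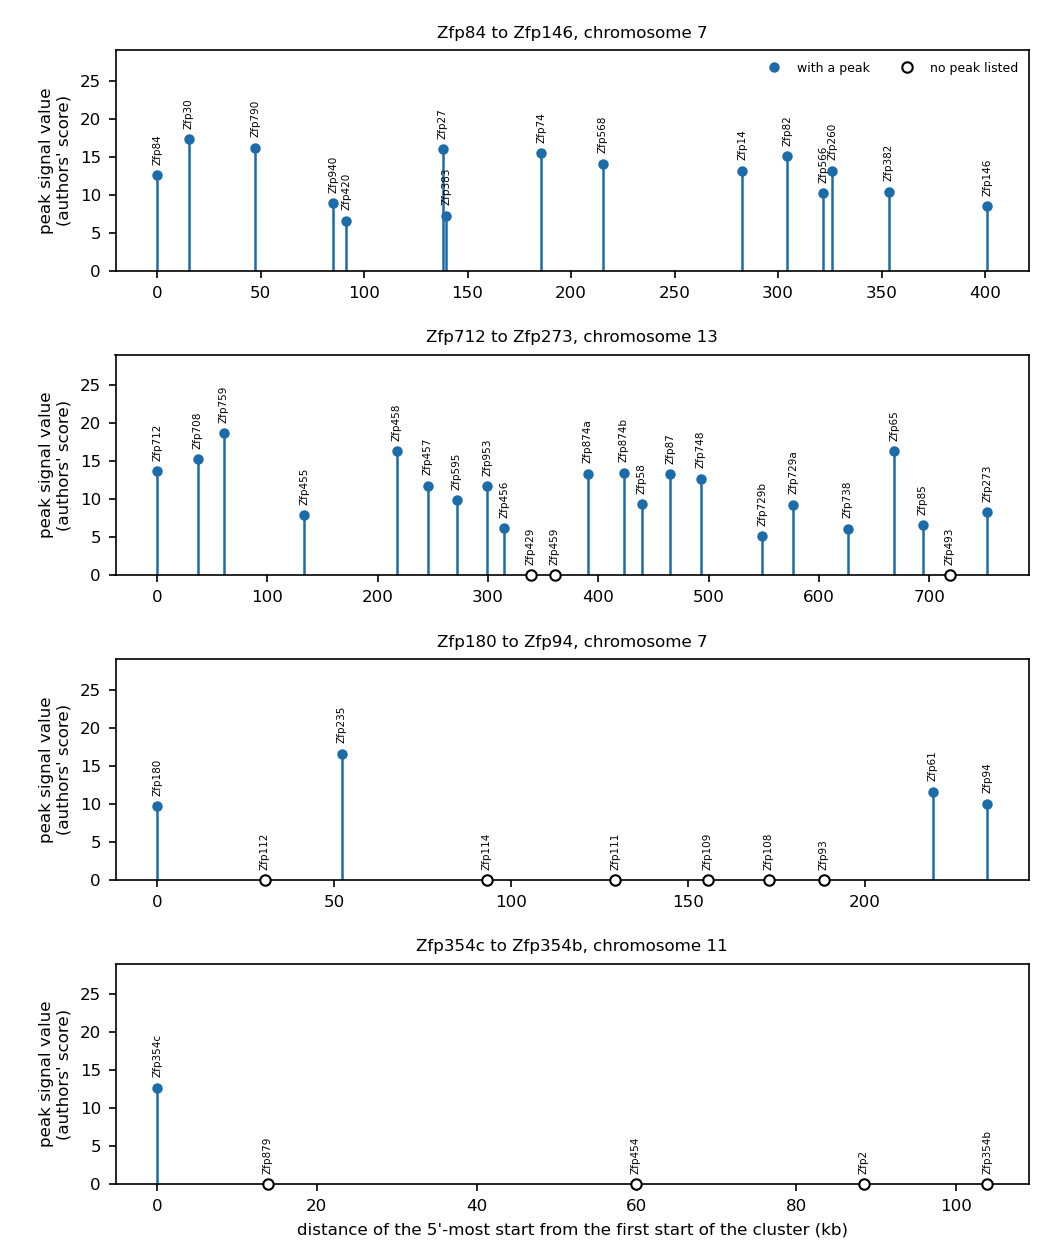
Signal value of the strongest replicated peak at each Zfp gene (vertical axis, the authors' score) against the distance of its 5′-most start from the first start of the cluster in kb, for 4 clusters, with open circles on the axis for genes without a listed peak. The marked genes of the upper clusters lie between 5.20 and 18.7, and the lower clusters hold long runs of genes without a peak.

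Promoter sequence was read over 500 bp on either side of the 5′-most start. A promoter was called high in CpG where the observed to expected CpG ratio was at least 0.6 and the GC share at least 50%, and low where the ratio was under 0.4. Of the clustered genes 85 (39.4%) were high, beside 57.9% of the isolated genes. Of those 85, 78 (91.8%) were marked, beside 79.6% of isolated and 79.8% of all high-CpG genes. The intermediate class was marked in 48 of 73 cases (65.8%), beside 73.0% of isolated and 53.0% of all genes. In the low class 25 of 58 (43.1%) were marked, beside 31.6% of isolated and 16.6% of all genes. The replicate 1 list left these counts as they were, and the replicate 2 list added Zfp935 to the intermediate class and Zfp934 and Zfp960 to the low class. The 7 high-CpG members without a peak in any list were Zfp2, Zfp287, Zfp334, Zfp583, Zfp872, Zfp810 and Zfp105.

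**Figure D3:**
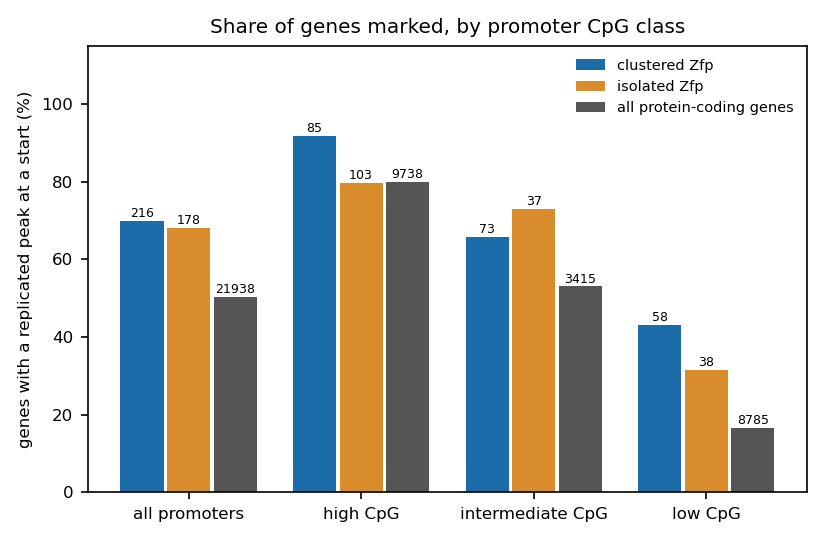
Percent of genes with a replicated peak at a start, for clustered Zfp genes, isolated Zfp genes and all protein-coding genes, over all promoters and by CpG class, with the number of genes above each bar. The clustered genes stand highest in the high class (91.8%) and in the low class (43.1%), and below the isolated genes in the intermediate class.

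The low-CpG members that were marked came mostly from a single place. The Zfp712 to Zfp273 cluster on chromosome 13 held 14 low-CpG members, and 13 of them (92.9%) were marked, all but Zfp429. In the other clusters 12 of 44 (27.3%) were, and among them were Zfp54, Zfp52 and Zfp983 of the Zfp677 to Zfp229 cluster. Some members have a peak away from the 5′-most start, so the CpG ratio was also taken at the annotated start nearest the middle of the strongest peak. There, 10 of the 13 chromosome 13 genes stayed in the low class, 2 were intermediate and Zfp748 was high, and their median ratio was 0.370. Of all 25 marked low-CpG members, 18 stayed low. Of the 33 unmarked ones, 30 had no annotated start outside the low class.

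Copies elsewhere in the genome were measured on this same sequence, cut into all its words of 32 bases, by the percent of words found more than once in the primary assembly. The median was 0.103% in marked and 12.4% in unmarked clustered genes. Members with under 10% were marked in 113 of 143 cases (79.0%), beside 73.5% of isolated and 56.4% of all genes. At 10% or more, 38 of 73 (52.1%) were marked, beside 41.9% of isolated and 22.5% of all genes, but the share did not fall evenly. It was 82.9% under 1%, 68.4% at 1 to 10% (26 of 38), 73.2% at 10 to 50% (30 of 41) and 25% at 50% or more (8 of 32). The sources used here do not say how reads matching several places were treated, so at such starts an absent mark and unassigned reads cannot be told apart. On chromosome 4, 11 of the 12 members had at least 10% repeated words, and Zfp933, with 0.206%, was the member that was marked (9.11 in replicate 1, 15.6 in replicate 2, 13.3 in the replicated list). CpG and copies moved together: 46 of the 58 low-CpG members had 10% or more, and 17 of those 46 (37.0%) were marked, beside 8 of the 12 with less. In the intermediate class the split by copies went the other way, with 13 of 18 (72.2%) marked at 10% or more and 35 of 55 (63.6%) below. In the high class the shares were close, at 8 of 9 (88.9%) and 70 of 76 (92.1%).

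**Figure D4:**
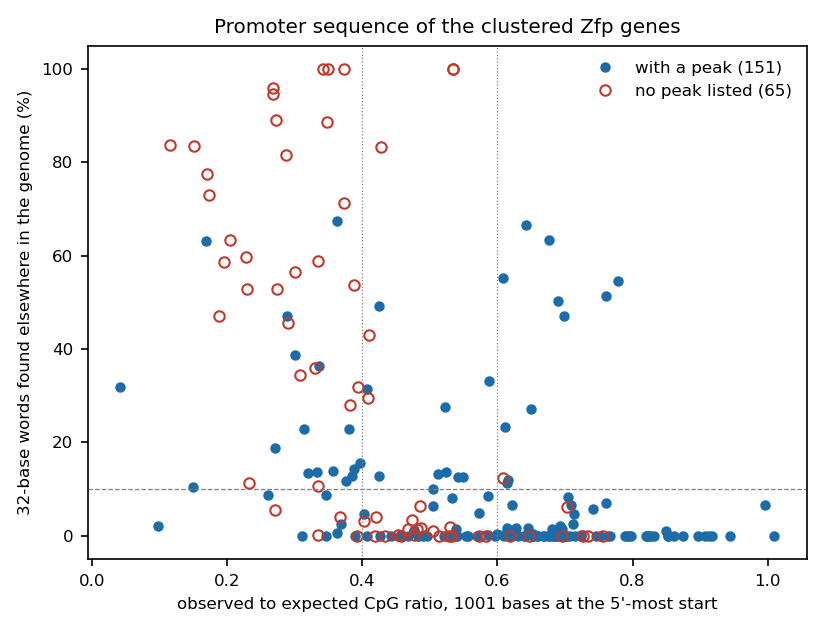
Percent of repeated 32-base words against the observed to expected CpG ratio for the promoters of the 216 clustered genes, with filled points for the 151 marked and open circles for the 65 unmarked; lines mark ratios of 0.4 and 0.6 and the 10% limit. Open circles crowd the upper left, where 29 of 46 low-CpG promoters with 10% or more repeated words are unmarked.

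Both pairs of promoters below show what such copies look like, and were chosen after their values were seen. The stretches below are the 120 bases upstream of each 5′-most start, 5′ to 3′ on the gene's strand (GRCm38), with CpG dinucleotides in capitals. Zfp978 (chr4:147361183-147361302, plus strand) and Zfp979 (chr4:147642514-147642633, minus strand) are identical over these bases and 99.7% identical over the whole promoter sequence. Zfp955a (chr17:33255146-33255265, minus strand) and Zfp955b (chr17:33289424-33289543, plus strand) are identical over all of it. None of the 4 genes had a peak in any list.
Zfp978 and Zfp979: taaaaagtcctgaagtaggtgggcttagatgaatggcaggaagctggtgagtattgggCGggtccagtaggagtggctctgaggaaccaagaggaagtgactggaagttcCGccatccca
Zfp955a and Zfp955b: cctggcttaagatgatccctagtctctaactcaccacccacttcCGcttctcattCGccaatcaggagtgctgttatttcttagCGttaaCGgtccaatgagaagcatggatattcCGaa

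A partly shared promoter with peaks was found on chromosome 17, also picked after values were seen. Zfp944 and Zfp758 start 53 bp apart on opposite strands, and Zfp942 and Zfp943 start 88 bp apart in the same arrangement. The stretches between the paired starts, shown on the plus strand with CpGs in capitals, are chr17:22361401-22361452 and chr17:21962465-21962551. The 52 bases of the first lie unbroken inside the 87 of the second, while the longer promoter sequences of Zfp943 and Zfp758 are 90% identical, less than in the pairs above.
Zfp944 to Zfp758: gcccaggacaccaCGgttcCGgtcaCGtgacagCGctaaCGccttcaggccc
Zfp942 to Zfp943: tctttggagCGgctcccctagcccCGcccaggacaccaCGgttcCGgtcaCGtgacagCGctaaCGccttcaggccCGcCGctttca
The strongest peaks began downstream of these stretches, on the Zfp758 and Zfp943 side. Zfp944 and Zfp758 shared a peak of signal 22.5 (20.0 in replicate 1, 23.0 in replicate 2) and a domain of 1966 bp. Zfp942 and Zfp943 shared a peak of 16.8 (16.0 and 15.7) and a domain of 2956 bp. Repeated words made up 47.0 to 54.6% of these 4 promoters, and all 4 were in the high-CpG class. How reads were shared between the places was not tested.

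Neighbours mostly had the same call. Among the 162 neighbouring pairs within clusters both genes were marked in 96, neither in 24 and a single gene in 42, so 74.1% were alike. Since 69.9% of all clustered genes were marked, many pairs would be alike without any link between neighbours, and such a link was not tested. The arrangement made little difference: 74.8% of same-strand, 70.4% of divergent and 75% of convergent pairs were alike. All 5 pairs with starts within 2000 bp were marked at both genes. Of these, 4 pairs shared a peak: Zfp882 and Zfp617 (27 bp apart), Zfp944 and Zfp758, Zfp942 and Zfp943, and Zfp646 and Zfp668 (607 bp). The last pair was counted as convergent because its starts face each other, but the genes overlap at their 5′ ends. Zfp27 and Zfp383, 1651 bp apart and divergent, had separate peaks within a domain of 3573 bp. A shared peak cannot be assigned to either gene, so the calls within such a pair are not independent. Of the next 28 pairs, with starts up to 19530 bp apart, 85.7% were alike, and of the pairs farther apart 70.5% were.

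The closest pairs that differed are shown by their 120 upstream bases, because they place a marked and an unmarked promoter side by side. CpGs are in capitals, and the marked gene of each pair is Zfp354c, Zfp954, Zfp719 or Zfp663.
Zfp354c: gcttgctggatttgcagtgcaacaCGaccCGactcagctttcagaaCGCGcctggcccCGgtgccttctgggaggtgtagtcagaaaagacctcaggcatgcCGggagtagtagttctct
Zfp879: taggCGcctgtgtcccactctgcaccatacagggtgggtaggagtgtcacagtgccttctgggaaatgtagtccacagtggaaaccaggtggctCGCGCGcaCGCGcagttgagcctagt
Zfp954: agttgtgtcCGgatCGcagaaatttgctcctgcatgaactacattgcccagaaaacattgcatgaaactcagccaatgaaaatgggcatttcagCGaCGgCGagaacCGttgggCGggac
Zfp773: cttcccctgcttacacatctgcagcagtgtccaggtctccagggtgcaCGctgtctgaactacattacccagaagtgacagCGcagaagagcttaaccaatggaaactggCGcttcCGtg
Zfp658: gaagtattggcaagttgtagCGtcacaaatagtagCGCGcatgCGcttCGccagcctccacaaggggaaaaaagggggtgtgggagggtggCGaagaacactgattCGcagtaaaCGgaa
Zfp719: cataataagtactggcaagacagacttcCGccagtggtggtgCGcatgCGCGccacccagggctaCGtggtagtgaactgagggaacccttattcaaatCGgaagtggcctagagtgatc
Zfp663: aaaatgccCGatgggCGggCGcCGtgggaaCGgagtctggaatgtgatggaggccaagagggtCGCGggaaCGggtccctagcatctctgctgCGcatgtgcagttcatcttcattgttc
Zfp334: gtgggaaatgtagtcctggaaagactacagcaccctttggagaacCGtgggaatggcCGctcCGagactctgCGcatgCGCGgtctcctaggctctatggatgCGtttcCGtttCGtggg
The stretches lie at chr11:50827725-50827844 and chr11:50841553-50841672 (both minus strand), chr7:7121489-7121608 and chr7:7136756-7136875 (both minus), chr7:43562136-43562255 and chr7:43579490-43579609 (both plus), and chr2:165368730-165368849 and chr2:165388260-165388379 (both minus). The starts of each pair are 13828, 15267, 17354 and 19530 bp apart, in this order. All 8 genes but Zfp354c (12%) and Zfp954 (8.04%) had no repeated words at their promoters.

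In these short stretches the number of CpGs did not separate the calls. Zfp354c and Zfp879 have 6 each and Zfp663 and Zfp334 have 9 each, while Zfp954 has 7 against 4 in Zfp773 and Zfp719 has 6 against 8 in the unmarked Zfp658. Over the whole promoter sequence the marked gene had the higher CpG ratio in 3 of the 4 pairs: 0.615 against 0.434 for Zfp354c and Zfp879, 0.533 against 0.392 for Zfp954 and Zfp773, and 0.658 against 0.572 for Zfp719 and Zfp658. Zfp663, at 0.529, was marked, and Zfp334, at 0.727, was not. The 8 letters GCATGCGC, the core of the sequence bound by NRF1, occur in Zfp658, Zfp719 and Zfp334, of which only Zfp719 is marked. GGGCGG occurs in Zfp954 and Zfp663, both marked, and in no unmarked stretch. On either strand, CCAAT occurs in Zfp954, Zfp773 and Zfp658, of which only Zfp954 is marked. Signals at the marked genes were 12.7 at Zfp354c, 13.5 at Zfp954 (8.53 in replicate 1, 15.9 in replicate 2), 18.2 at Zfp719 (12.9 and 21.5) and 8.71 at Zfp663 (5.31 and 10.5).

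Short motifs were counted on both strands in the 300 bases upstream of the 5′-most start. GGGCGG, the GC box bound by SP1 and its relatives, was in 27.3% of clustered promoters, beside 50% of isolated and 40.4% of all. In clustered genes it was in 30.5% of marked and 20.0% of unmarked promoters. CCAAT, bound by NF-Y, was in 49.5% of clustered promoters, beside 39.8% of all, and more often in unmarked (64.6%) than in marked ones (43.0%). CCGGAAG, an ETS site, was in 15.3% of clustered and 15.7% of isolated promoters, beside 8.58% of all and 14.4% of all marked genes. TATAAA was in 10.6% of clustered promoters, beside 13.7% of all, but among marked genes the order turned, with 11.9% of clustered and 8.09% of all. GCATGCGC was in 6.02%, beside 3.21% of all, and among marked genes in 4.64% and 4.61%. CTCGCGAG was in 1 clustered promoter and ATGGCGGC, a YY1 core, in none, beside 0.948% and 1.11% of all promoters. A match is a description of letters and not a bound site.

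Where clustered genes were marked, their peaks were of ordinary height and narrow extent. The median signal was 13.5 (quartiles 11.3 and 16.6), beside 13.4 for isolated Zfp genes and 13.8 for all marked genes. Of the 151, 6 were in the top and 12 in the bottom decile of marked genes. After Zfp282 the highest values were 22.5 at Zfp944 and Zfp758, 22.3 at Zfp397 (12.4 in replicate 1, 24.6 in replicate 2) and 21.9 at Zfp606 (14.3 and 26.2). The lowest was 4.00 at Zfp345, with 2.86 and 4.53, in a peak of 194 bp at a promoter with 63.2% repeated words. It was the single clustered call lost when peaks needed a −log10 q of at least 5.

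The mark reached less far along the genome at clustered genes. Replicated peaks separated by 1000 bp or less were joined into domains, and each gene was given the widest that held a peak at a start. The median domain was 1738 bp (quartiles 1404 and 2176) at the 151 clustered genes, 2286 bp (1753 and 3023) at the 121 isolated genes and 2258 bp at all marked genes. In the replicate 1 list the clustered and isolated medians were 1894 and 2422 bp, and in replicate 2 they were 1714 and 2254 bp. The gap between the groups was larger than the SD between the replicate lists, which was 127 bp for clustered and 119 bp for isolated genes (n = 2). The marked genes of the chromosome 13 cluster were narrow, with a median of 1139.5 bp over 20 genes, and the 131 in the other clusters had 1844 bp. Only 35 of 151 clustered genes exceeded the median of all marked genes, beside 61 of 121 isolated genes. No test was made, since genes are not replicates of a condition.

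The difference in width was also seen within a CpG class. Among high-CpG genes the medians were 2011 bp for clustered, 2407.5 bp for isolated and 2409 bp for all marked genes. In the intermediate class they were 1510, 2117 and 1836 bp, and in the low class 1487, 1698 and 1799.5 bp. Among genes with under 10% repeated words they were 1875, 2324 and 2280 bp. Clustered genes had a median of 3 annotated starts and isolated genes 4, and 72 of 151 clustered genes (47.7%) had a single peak at their starts, beside 33.9% of isolated and 32.3% of all marked genes. The part of the number of starts in the width was not tested. Domains over 4000 bp were found at 3 clustered genes (1.99%), beside 11.6% of isolated and 10.5% of all marked genes.

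**Figure D5:**
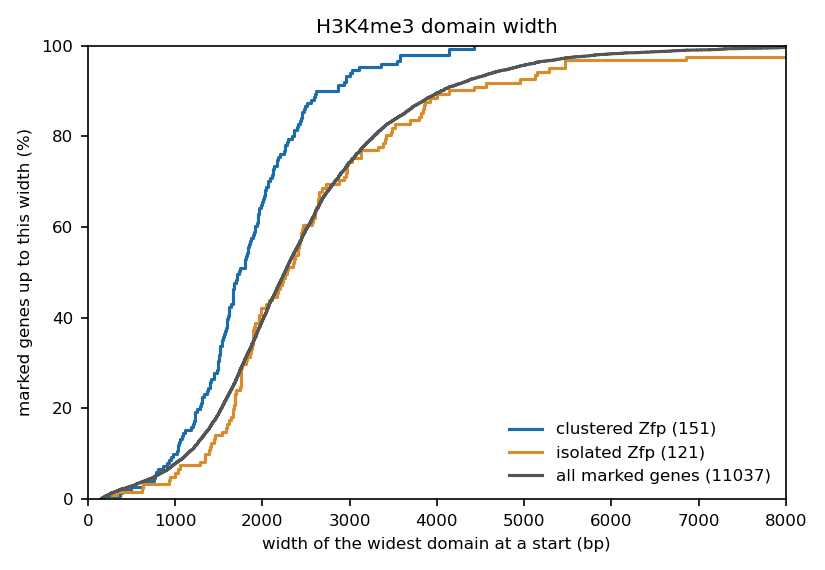
Percent of marked genes whose widest domain at a start is up to a given width in bp, for clustered Zfp genes, isolated Zfp genes and all marked protein-coding genes, which include both; the axis ends at 8000 bp, beyond which 3 isolated and no clustered genes lie. The clustered curve lies to the left of the other curves over most of the axis, with medians of 1738, 2286 and 2258 bp.

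The widest clustered domains were 4430 bp at Zfp667, 4138 bp at Zfp882 and Zfp617, 3573 bp at Zfp27 and Zfp383, and 3539 bp at Zfp316. The domains of Zfp882 with Zfp617 and of Zfp27 with Zfp383 each hold the starts of both genes. Zfp667 had 15.2 (13.6 in replicate 1, 17.3 in replicate 2) and Zfp316 20.3 (16.8 and 23.8). When only the strongest peak of each clustered gene was compared, that of Zfp84 was the widest, at 3110 bp.

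The summit of the strongest peak lay downstream of the nearest start in 109 of 151 clustered genes (72.2%), beside 75.2% of isolated genes. Over all marked genes of each group, upstream summits included, the median offset was 94 bp downstream in clustered and 99 bp downstream in isolated genes. At 20 clustered genes (13.2%) the strongest peak also reached a start of another protein-coding gene, beside 21 of 121 marked isolated genes (17.4%). At 7 of the 20 clustered genes the other gene was a clustered Zfp gene. Only an internal start was marked at 8 members (Zfp708, Zfp759, Zfp458, Zfp738, Zfp65, Zfp229, Zfp119b and Zfp607a), of which 5 are in the chromosome 13 cluster, beside 2 isolated genes. Peaks inside the gene and away from its starts were found at 18 of 216 clustered and 31 of 178 isolated genes. Gene length, which bears on these counts, was not taken into account. Shares over all protein-coding genes were not computed for summits, shared peaks, internal starts or peaks inside genes. In the last coding exon, which in these genes usually encodes the finger array, Zfp637 and Zfp771 had such a peak, as did 1 isolated gene.

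By their predicted proteins, clustered genes had a median of 11 C2H2 finger matches (quartiles 9 and 14) and isolated genes 8. Zfp972, Zfp428, Zfp688 and Zfp935 had under 3, so the symbol alone does not make a long array. A match to the KRAB A box was found in 162 of 216 clustered genes (75%) and in 46 of 178 isolated genes (25.8%). The match was to a short fixed pattern, so a gene without it may still encode a KRAB domain. Clustered genes with the match were marked in 106 of 162 cases (65.4%) and those without it in 45 of 54 (83.3%). The same order was seen in isolated genes, with 24 of 46 (52.2%) and 97 of 132 (73.5%). On chromosome 4 all 12 clustered members had the match and 11 were low in CpG, and on chromosome 2, 10 of 11 had it and 9 were low. On the other chromosomes 140 of 193 had it and 38 were low. The part of CpG class and repeated words in the split by KRAB match was not tested. The median number of fingers was 11 in both marked and unmarked clustered genes. Among members with known roles, Zfp445, which protects imprints, had a signal of 17.2 (17.3 in replicate 1, 18.5 in replicate 2), and Zfp809, which silences proviruses of the Moloney type, had a low value of 6.92 (7.37 and 6.88).

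The replicates differed at 3 members. Zfp935 and Zfp934 on chromosome 13 were reached by the same weak peak in replicate 2, with a signal of 3.37, and Zfp960 on chromosome 17 by another of 4.68. None had a peak in replicate 1, and repeated words made up 83.2, 81.6 and 53.8% of their promoters. At the starts of all clustered genes, 95.4% of 305 replicate 1 peaks overlapped a replicate 2 peak, and 96.1% of 228 replicate 2 peaks overlapped a replicate 1 peak, by at least 1 bp. Where the overlap had to cover 50% of the peak, the shares were 94.4% and 83.8%. The same shares over all peaks of the lists were not computed, so this overlap is not shown to be particular to clustered genes.

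The 24 listed genes for partners of KRAB proteins were all marked, beside 50.3% of all protein-coding genes and 79.8% of those with high-CpG promoters. All 13 genes of the TRIM28 complex list, all 7 of the list of HUSH, MORC and histone H3.3 chaperone genes and all 4 SUMO pathway genes had a replicated peak. Each also had a peak in both replicate lists, as nearly all marked genes did. Trim28 itself had a signal of 24.9, rank 282 of the marked genes, in a domain of 4034 bp, and Setdb1, its H3K9 methyltransferase, had 11.6 in a domain of 987 bp. The widest domains were 6012 bp at Cbx5 and 5746 bp at Cbx3, which encode HP1 proteins. The median domain of these 24 genes, 2510 bp, was above that of the clustered Zfp genes. Of the other zinc finger families, 37 of 41 Zbtb genes (90.2%) were marked, 8 of 11 Zkscan genes (72.7%) and 9 of 19 Zscan genes (47.4%). Among other protein-coding genes inside the cluster spans, 27 of 50 (54.0%) were marked. The Zscan share and that of the other genes in the spans lie near the 50.3% of all genes.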

How the data were processed

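H3K4me3 ChIP-seq peak lists of 2 MEL libraries were analysed. Per the deposited notes, the lists are narrowPeak tables for each replicate, for both pooled, and for replicated peaks, on mm10. Each peak has a signal value, a score made by the authors, and a −log10 q, also deposited by the authors. Other deposited columns give positions and summits. Not given in the sources used here are the aligner, peak caller, settings, rule for replicated peaks and read depth. No peak lay beyond a GRCm38 chromosome end.

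Starts came from GENCODE M21 and sequence from GRCm38. Zinc finger and KRAB matches were counted in the longest GENCODE coding sequence of each gene, translated, with the KRAB match in the first 200 residues. Repeated words were counted on both strands. Code was tested on simulated data. Calculations used Python 3.11.15, numpy 2.4.6, pandas 2.3.3, numba 0.67.0, Biopython 1.88 and matplotlib 3.10.9.

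The members and lists were chosen with earlier results of these data known. The genes named were, in clusters of 4 or more, the strongest marked and up to 3 unmarked members; the widest, strongest and weakest members; members whose call changed; the closest pairs; high-CpG unmarked and low-CpG marked members. Genes named for a known role, the clusters drawn as maps and the KRAB and finger patterns were chosen after values were seen. Alternatives were other windows, starts, peak limits, lists, assignment, repeat limits, cluster distances and merging gaps. No test was made, with 2 libraries of 1 group. The mm9 list was not used here.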

Additional observations from a re-analysis of the deposited data

How the results depend on the processing

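The number of clustered Zfp genes marked stayed within 1.5 times of 151 in all 14 alternatives, from 113 of 143 to 208 of 341 genes. These extremes came from alternatives that change which genes are counted, so the range of counts does not show how stable the share was. The difference between clustered and isolated genes, 1.93 points, was small and changed sign: -0.65 with the 5′-most start only, -3.39 with 200 kb between starts and -3.34 with all genes of 3 or more C2H2 matches, an alternative added after the data were seen. It was 5.55 among promoters with under 10% repeated words, 19.3 with 50 kb, and 1.37 to 3.32 when either replicate was left out. With 50 kb, 31 of 50 clusters were fully marked, and with C2H2 genes 193 of 300 isolated genes were marked. The median domain was 1217 bp in clustered and 1448 bp in isolated genes without merging, and 1714 to 1894 and 2254 to 2422 bp in single replicates. Calls at single genes changed at up to 8 members with the 5′-most start. The 2500 bp window added Zfp946 and Zfp626, protein-coding transcripts alone lost Zfp597, and the nearest start alone lost Zfp553 and Zfp646. The alternative with RefSeq proteins was not run. Depth is unknown, so no lower limit of detection can be given.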
